A study of Saccharomyces cerevisiae with 12 samples.

Results

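Ty1 is a retrotransposon of budding yeast, a mobile element that is transcribed by RNA polymerase II and copied back into DNA by its own reverse transcriptase. Its messenger RNA carries a pair of overlapping reading frames. TYA encodes the Gag protein of the virus-like particle, and a programmed ribosomal frameshift at its end lets translation run on into TYB, so that the long read-through frame encodes the Gag-Pol polyprotein with protease, integrase and reverse transcriptase. In haploid laboratory strains Ty1 RNA is an abundant polyadenylated transcript, and the element integrates mostly upstream of genes read by RNA polymerase III, such as tRNA genes.

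Of 10 Ty1 reading frames named by their systematic identifiers, 7 had a probe among the 5974 on the array and were followed here. They were named because they are Ty1 frames of a family in which YER138C was known to be much lower in hypoxic than in aerobic wild type cells, so that contrast and the shift contrast in the wild type are described below without a test. YER138C, YER160C, YJR027W and YML045W are long frames with a gene model of 5269 bp in the RefSeq table of assembly R64. YML040W, YMR046C and YMR051C are short frames of 1323 bp that share the start of a long one. YML039W, YMR045C and YMR050C, the long partners of these short frames, had no row in the table used here. The measured frames lie on 3 chromosomes, V, X and XIII. R64 holds 41 such nested pairs of a short frame within a long one of at least 4500 bp, 24 of them with exactly these lengths. The Ty family of each pair was not given, so not all of the 41 need be Ty1. Ty1 copies share most of their sequence, and probe sequences were not given. Labelled cDNA of a given copy can bind the probe of another, so no reading can be assigned to its own element. Counts of frames given below are therefore not counts of independent observations.

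The RNA came from the haploid laboratory strain BY4741, which carries deletions of HIS3, LEU2, MET17 and URA3, and from cells labelled as its ixr1 null. Ixr1 is an HMG-box protein that binds DNA. Both genotypes were grown at 30 C in complete synthetic medium with 2% glucose in 3 ways: in air, overnight in anaerobic jars with oxygen under 1% and added ergosterol (20 mg/l) and Tween 80 (0.5%), called hypoxia below, and in air to an OD600 of 0.8 followed by 3 hours of nitrogen bubbling, called the shift. Low oxygen therefore cannot be told apart from the supplements and the jar culture in the first case, or from time in culture and bubbling in the second. The 12 arrays form 6 groups of 2, lettered A and B, and the labels do not say whether these were separate cultures, so p-values measure the spread between arrays alone, and that spread may be technical.

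Signals are the deposited intensities, which average close to 1 on every array. The IXR1 probe gave 8.11 and 7.03 in wild type air and 9.75 and 8.64 on the air arrays labelled ixr1 null. It gave 0.441 and 0.399 against 0.608 and 1.13 in hypoxia, and 4.003 and 3.34 against 3.60 and 3.01 after the shift. The label was therefore not reflected in the IXR1 signal, the part of the gene that the probe covers is not known, and the groups are called by their labels throughout. Of the genes deleted in BY4741, MET17 was listed at 0 on 7 of 12 arrays and reached at most 0.0404. LEU2 was listed at 0 on 5 arrays and reached 0.554, with a median of 0.0583. HIS3 and URA3 were listed at 0 on none, with medians of 0.605 and 0.171 and highest readings of 1.44 and 0.997. The signals of HIS3 and URA3 thus did not reflect their deletion, and the part of each gene that its probe covers is not known. The a-cell pheromone genes MFA1 and MFA2 had medians of 2.07 and 5.75 against 0.184 for the alpha-cell gene MF(ALPHA)1. Exact zeros were fewest on array B of the wild type shift (69 probes) and most numerous on array A of the ixr1 null shift (3489). On the ixr1 null air arrays the brightest probes gathered at a ceiling, with 22 and 25 probes within 10% of the brightest.

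In air all 7 Ty1 frames read above the array mean in both genotypes. In the wild type the mean of all 7 was lower in both low-oxygen conditions, by amounts that differed widely between frames, although YER160C overlapped air after the shift and was not lower there without shift array B. YER138C was lower in both (log2 differences from air of -9.13 in hypoxia and -10.30 after the shift). YER160C, YJR027W, YMR046C and YMR051C had the larger difference in hypoxia, and YML040W and YML045W after the shift. For YML045W that order turned without wild type shift array B (-1.56 after the shift against -1.76 in hypoxia). On the arrays labelled ixr1 null, YER138C, YJR027W and YMR046C fell in hypoxia and YER138C fell after the shift, while YML040W and YML045W read higher in hypoxia than in air without passing the threshold.

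The 7 frames together made up 2.22% and 2.30% of the summed signal of the wild type air arrays A and B. They made up 0.889% and 0.812% of it on the ixr1 null air arrays. In hypoxia the shares were 0.139% and 0.145% in the wild type and 0.128% and 0.170% on the ixr1 null arrays, so both hypoxic groups lay under every air array. After the shift the wild type arrays differed from each other, with 1.02% on A and 0.166% on B, and the ixr1 null arrays gave 0.444% and 0.244%. In air the sum is carried by YER138C, YER160C and YJR027W, whereas on the hypoxia arrays of both genotypes YER160C, YML040W and YML045W made up most of it. These are totals of bulk cultures, in which fewer cells with Ty1 RNA and less Ty1 RNA per cell cannot be told apart.

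**Figure D1:**
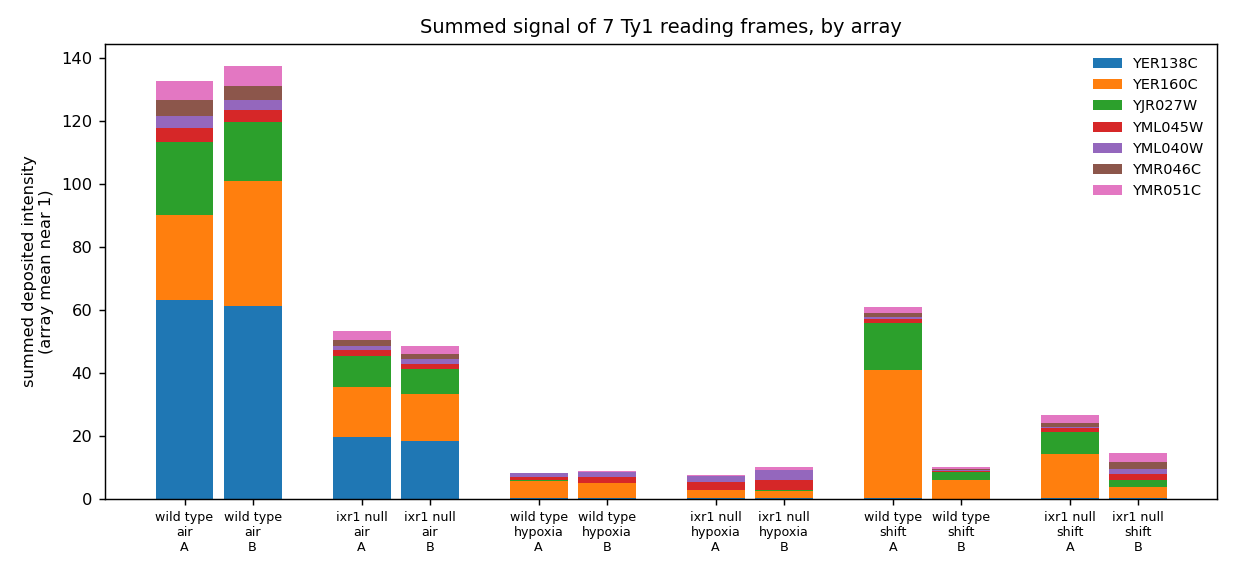
Summed deposited intensity (vertical axis, array mean near 1) of the 7 measured Ty1 frames on each of the 12 arrays, with 1 bar per array and 1 colour per frame. The sum was highest in wild type air (132.6 and 137.6), lay between 7.64 and 10.1 on the 4 hypoxia arrays, and differed between wild type shift arrays A (60.8) and B (9.94).

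YER138C, a long frame on chromosome V that encodes Gag-Pol, had the sharpest contrast between air and low oxygen. In air its wild type signal was 63.0 and 61.3 and its ixr1 null signal 19.5 and 18.2. In hypoxia it was 0.0631 and 0.150 in the wild type and 0.142 and 0.109 on the ixr1 null arrays. After the shift it was 0.0916 and 0.0366 in the wild type and 0.139 and 0.123 on the ixr1 null arrays. All 4 air arrays lay far above all 8 low-oxygen arrays. Ordered by group mean, wild type air (62.2 ± 1.23, SD, n = 2) stood above ixr1 null air (18.8 ± 0.921). The 4 low-oxygen groups followed between 0.131 and 0.0641, and each overlapped its neighbour in that order. Within the array, its place went from rank 6 and 8 of all probes in wild type air to rank 4911 and 4242 in hypoxia.

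YER160C, the other long frame on chromosome V, kept a substantial signal in every group. Its wild type readings were 27.0 and 39.5 in air, 5.54 and 4.67 in hypoxia, and 40.8 and 5.77 after the shift. The ixr1 null readings were 16.1 and 15.1 in air, 2.60 and 2.46 in hypoxia, and 14.1 and 3.44 after the shift. The hypoxia arrays were low and tight in both genotypes, whereas shift array A was high and shift array B low in both genotypes. In the wild type, shift array A lay above both air arrays, so these groups overlap.

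YJR027W, the long frame on chromosome X, had wild type readings of 23.2 and 18.8 in air, 0.231 and 0.306 in hypoxia, and 15.0 and 2.66 after the shift. Its ixr1 null readings were 9.87 and 8.004 in air, 0.121 and 0.0559 in hypoxia, and 6.75 and 2.39 after the shift. Air, shift and hypoxia followed each other in that order in both genotypes without overlap. The letter pattern after the shift was that of YER160C.

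YML045W, the long frame on chromosome XIII, had wild type readings of 4.45 and 3.97 in air, 1.11 and 1.70 in hypoxia, and 1.31 and 0.330 after the shift. The corresponding ixr1 null readings were 1.67 and 1.46 in air, 2.33 and 3.17 in hypoxia, and 1.38 and 1.77 after the shift. Hypoxia thus lay under air in the wild type and above air on the ixr1 null arrays, without overlap in either case.

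The short frames encode Gag alone. YML040W, on chromosome XIII, had wild type readings of 3.71 and 3.10 in air, 1.12 and 1.62 in hypoxia, and 0.369 and 0.205 after the shift. Those of the ixr1 null were 1.25 and 1.45 in air, 2.01 and 3.32 in hypoxia, and 0.494 and 1.71 after the shift. As for YML045W, hypoxia was under air in the wild type and above air on the ixr1 null arrays. The lowest wild type readings were those after the shift.

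YMR046C, also on chromosome XIII, had wild type readings of 5.38 and 4.36 in air, 0.0446 and 0.0208 in hypoxia, and 1.28 and 0.366 after the shift. Arrays labelled ixr1 null gave 2.10 and 1.77 in air, 0.145 and 0.0495 in hypoxia, and 1.05 and 2.21 after the shift. Both wild type hypoxia readings and ixr1 null hypoxia reading B fell short of the 10th percentile of all positive signals of their array, so the low end of this frame is poorly measured.

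YMR051C, the third short frame, had wild type readings of 5.78 and 6.55 in air, 0.190 and 0.180 in hypoxia, and 1.95 and 0.575 after the shift. With the ixr1 null label it read 2.67 and 2.52 in air, 0.287 and 0.950 in hypoxia, and 2.58 and 2.93 after the shift. Its hypoxia readings were the lowest of each genotype, and with the ixr1 null label its deposited shift and air readings overlapped.

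**Figure D2:**
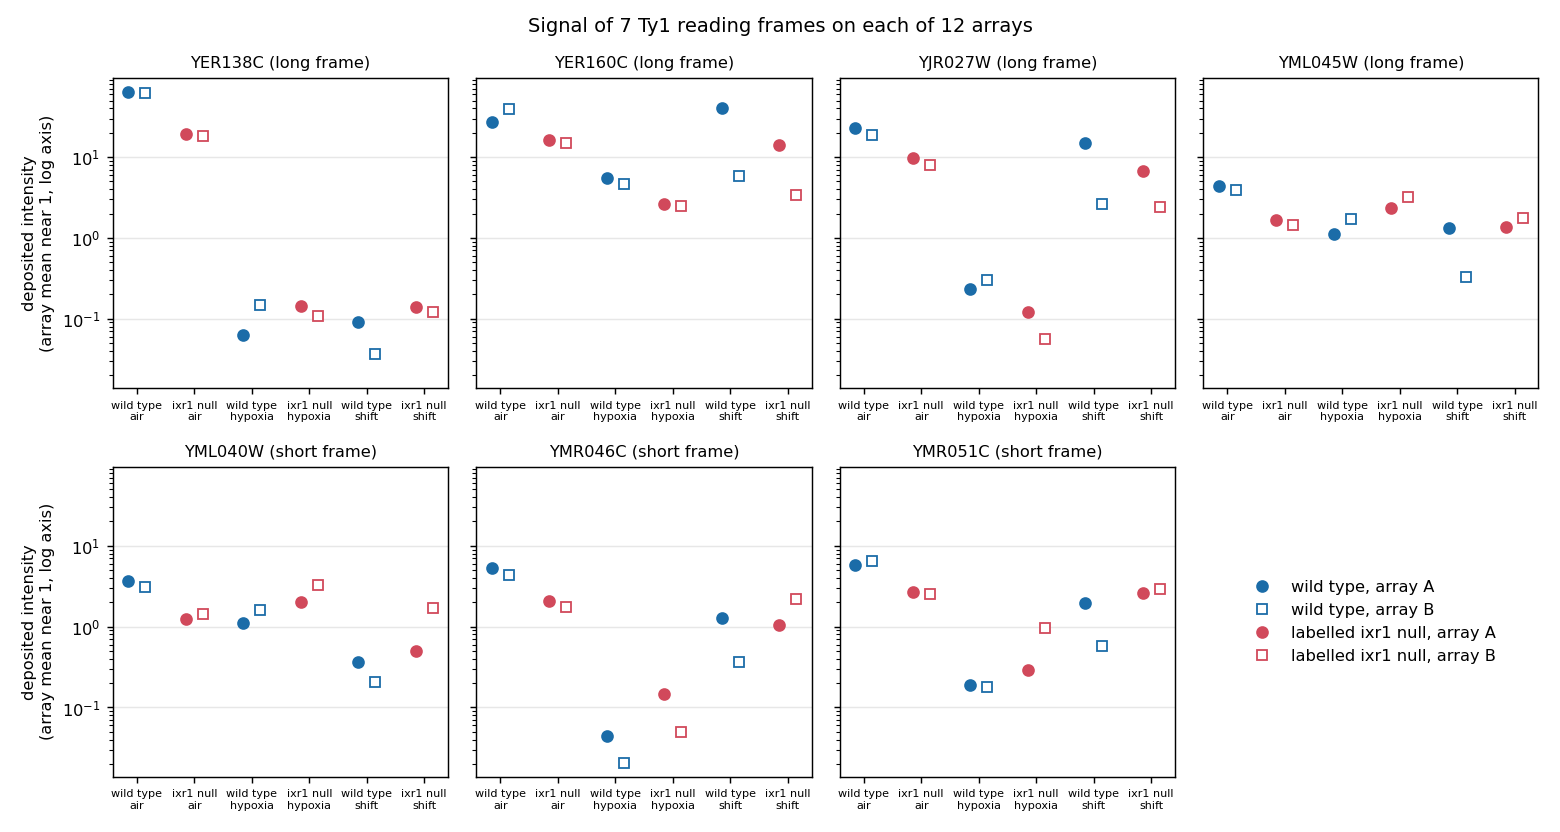
Deposited intensity (log axis, array mean near 1) of each measured Ty1 frame, with 1 point per array, filled circles for arrays A, open squares for arrays B, blue for wild type and red for arrays labelled ixr1 null. YER138C drops from between 18.2 and 63.0 in air to at most 0.150 in every low-oxygen group, whereas YER160C stays at 2.46 or above on all 12 arrays.

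Values were then quantile normalized and compared as differences of mean log2 signal, each with its standard error (SE) from a linear model fitted with limma over all 12 arrays. In the wild type, hypoxia minus air, all 7 frames lay below 0, with a median of -5.30 against 0.01 over all 4969 probes compared. The largest difference was that of YER138C (-9.13 ± 0.93), followed by YMR046C (-7.36 ± 0.90), YJR027W (-6.36 ± 0.87) and YMR051C (-5.30 ± 0.70). YER160C (-2.51 ± 0.85), YML045W (-1.76 ± 0.64) and YML040W (-1.46 ± 0.58) were lowered far less. The arrays of the groups did not overlap for 7 of 7 frames, which was the case, in the lower direction, for 30% of all probes. The size of the YMR046C difference is uncertain because of its dim readings. No p is given for these, since the fall of YER138C in this contrast was known when the frames were named.

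In the wild type shift minus air, all 7 differences were again below 0, with a median of -2.60 against 0.04 over all probes. YER138C had the largest, -10.30 ± 0.93, with reading B under the 10th percentile of its array. YML040W followed with -3.57 ± 0.58, then YMR046C (-2.74 ± 0.90), YML045W (-2.60 ± 0.64), YMR051C (-2.47 ± 0.69), YJR027W (-1.68 ± 0.87) and YER160C (-1.16 ± 0.85). The groups did not overlap for 6 of 7 frames, the exception being YER160C, against 19.6% of all probes lower without overlap. Without wild type shift array A or B, the YJR027W difference was -2.89 or -0.45, that of YML045W -3.61 or -1.56, that of YMR051C -3.33 or -1.58 and that of YMR046C -3.64 or -1.80. YJR027W and YML040W thus changed places between the low-oxygen conditions: the former had the larger difference in hypoxia and the latter after the shift. The hypoxia and shift contrasts share the air arrays.

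On the wild type shift arrays all 7 frames were higher on A than on B, by 0.94 to 3.36 on the log2 scale with a median of 2.05, whereas the median over all probes was 0.22. In the other 5 groups the frames went both ways, with medians between -0.23 and 0.19, but single frames differed by as much between A and B, from -1.82 to 2.65 in ixr1 null hypoxia and from -1.24 to 1.93 in the ixr1 null shift. Without wild type shift array B, the YER160C difference from air was 0.20 instead of -1.16. What set A and B apart was not tested.

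The same contrasts were tested on the arrays labelled ixr1 null. The frames were named with earlier results of these data known, so their p-values in both contrasts are not independent of that choice. In hypoxia against air, 3 of 7 frames fell and 0 rose at an adjusted p under 0.05, beside 5.58% of the 5505 probes tested that fell and 6.41% that rose. YER138C fell by 8.18 ± 0.95 on the log2 scale (adjusted p = 0.000503, limma with Benjamini-Hochberg adjustment), YJR027W fell by 7.90 ± 0.90 (adjusted p = 0.000449) and YMR046C fell by 5.41 ± 0.92 (adjusted p = 0.00398). The size of the last pair is uncertain because reading B of each in hypoxia was under the 10th percentile of its array. YMR051C (-2.41 ± 0.71, adjusted p = 0.0565) and YER160C (-2.40 ± 0.87, adjusted p = 0.120) were lower on both arrays without passing the threshold. YML040W (1.25 ± 0.59, adjusted p = 0.245) and YML045W (1.13 ± 0.65, adjusted p = 0.349) had differences above 0 that did not pass it either. The median over the frames was -2.41 against -0.20 over all probes.

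In the shift against air on these arrays, 1 of 7 frames fell, YER138C, by 5.83 ± 0.91 on the log2 scale (adjusted p = 0.0195, limma). Beside it, 0.135% of the 2228 probes tested fell and 1.84% rose, 3 and 41 probes. This split depends on the scaling, with 17 falling and 8 rising on the deposited scale. The call on YER138C was lost without ixr1 null air array A (-5.98, adjusted p = 0.0676), air array B (-5.74, adjusted p = 0.0785) or shift array A (-6.15, adjusted p = 0.114). Array A, with its 3489 zeros, raises dim values in normalization, and the deposited 0.139 of YER138C became 0.474. The other 6 frames had differences between -1.26 (YJR027W) and 0.30 (YML045W), and the median over the 7 was -0.04 against 0.30 over all probes.

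**Figure D3:**
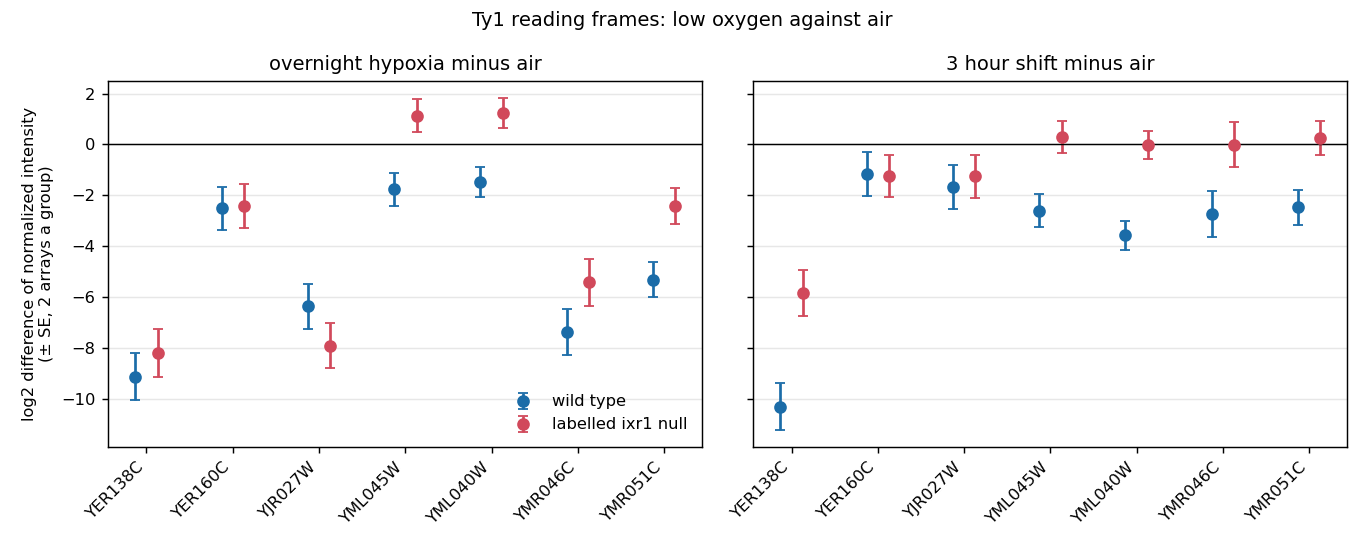
Difference in mean log2 normalized intensity (vertical axis) between low oxygen and air for each Ty1 frame, overnight hypoxia on the left and the 3 hour shift on the right, with blue points for wild type, red points for arrays labelled ixr1 null and bars of 1 SE (2 arrays a group). All wild type points lie below 0, whereas YML045W and YML040W of the ixr1 null lie at 1.13 and 1.25 in hypoxia, and after the shift only YER138C (-5.83) of the ixr1 null lies under -2.

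The genotypes were compared within each condition. The wild type arrays in these comparisons include those with which the family was named, so the differences are not independent of that choice. In air all 7 frames were lower on the arrays labelled ixr1 null, by a narrow range of -1.12 (YER160C, SE 0.85) to -1.73 (YML045W, SE 0.65) and a median of -1.57 against 0.08 over all probes. The groups did not overlap for 7 of 7, against 21.6% of all probes lower without overlap. Because the frames share sequence, these are not 7 separate observations. By limma 0 of 7 passed the threshold, with adjusted p from 0.542 to 0.855, and 3 of 7 had an unadjusted p under 0.05. Over all probes 0% of 5043 passed and 382 (7.57%) had such an unadjusted p. The ceiling of the ixr1 null air arrays, whose brightest probes read 24.5 and 20.8 against 156.9 and 201.2 in the wild type, moved with this difference, and its part in it was not tested.

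In hypoxia the genotype differences of the frames ran both ways. YJR027W was lower on the ixr1 null arrays (-2.69 ± 0.88, adjusted p = 0.217, limma), while YMR051C (1.32 ± 0.70), YML045W (1.16 ± 0.65) and YML040W (1.12 ± 0.59) had differences above 0. By limma 0 of 7 passed the threshold and 1 of 7 had an unadjusted p under 0.05. Over all 5379 probes 0.279% passed and 14.3% had such an unadjusted p. With arrays of the same letter treated as pairs, 1 probe in place of 15 passed over the array. For YJR027W the ixr1 null reading B was under the 10th percentile of its array, and for YMR046C (0.30 ± 0.91) both wild type readings were.

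After the shift YER138C (3.06 ± 0.91) and YML040W (1.94 ± 0.55) had the largest differences, both above 0 with an adjusted p of 0.492 by limma. Here 0 of 7 frames and 0% of 2231 probes passed the threshold, 2 frames and 170 probes (7.62%) had an unadjusted p under 0.05, and 20 probes passed with arrays of the same letter paired. The YER138C value rests on readings between 0.0366 and 0.139. Over the alternatives it ran from 0.28, with arrays centred on their medians, to 4.63 without wild type shift array A (adjusted p = 0.0152, the single alternative of 12 that passed), and it was 1.17 on the deposited scale and 1.40 without wild type shift array B.

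**Figure D4:**
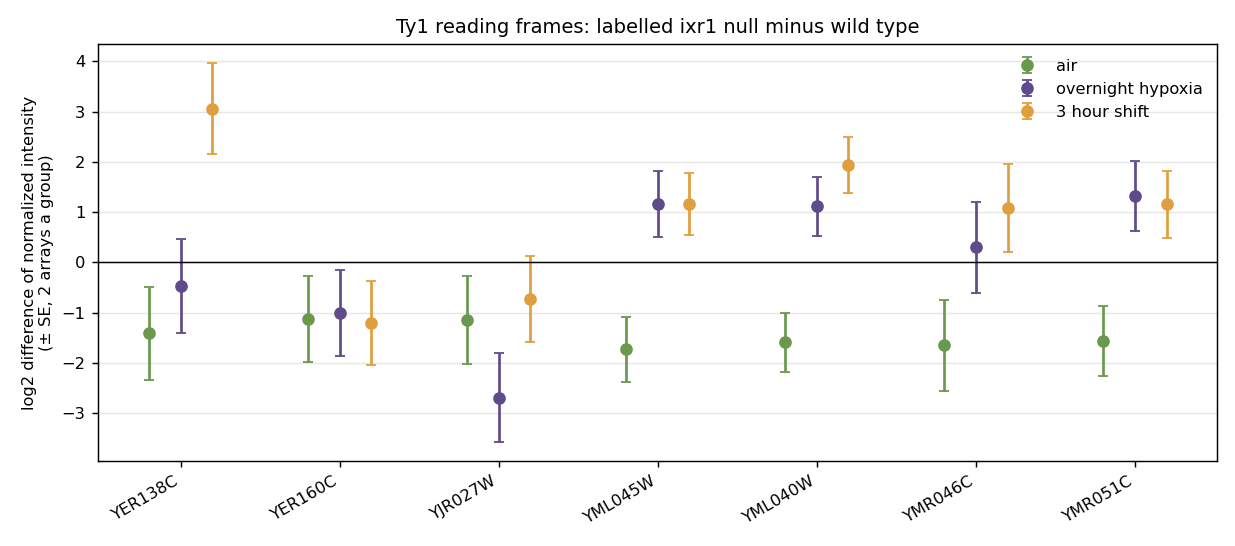
Difference in mean log2 normalized intensity (vertical axis) between arrays labelled ixr1 null and wild type arrays for each Ty1 frame in air (green), overnight hypoxia (purple) and after the 3 hour shift (orange), with bars of 1 SE (2 arrays a group). The 7 air points lie between -1.73 and -1.12, whereas the low-oxygen points lie on both sides of 0, from -2.69 (YJR027W, hypoxia) to 3.06 (YER138C, shift).

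Whether the response to low oxygen differed between genotypes was tested as an interaction. It includes the wild type differences from air, and the fall of YER138C in these was known when the frames were named. The p-values of the frames here are therefore not independent of that choice. For hypoxia the interaction was 2.89 ± 0.91 for YML045W, 2.89 ± 0.98 for YMR051C and 2.71 ± 0.82 for YML040W, with adjusted p of 0.177, 0.209 and 0.173 by limma. By that test 0 of 7 frames passed and 3 had an unadjusted p under 0.05, beside 741 (15.3%) of all 4844 probes. Of all probes 0.145% passed, 7 probes that became 0 with arrays of the same letter paired. For the shift, YER138C (4.47 ± 1.28), YML040W (3.53 ± 0.78), YML045W (2.89 ± 0.86) and YMR051C (2.72 ± 0.94) had an unadjusted p under 0.05, with adjusted p from 0.155 to 0.351. Of all 2178 probes 0% passed and 213 (9.78%) had such an unadjusted p. Without wild type shift array A, 2 frames passed, YER138C (5.99, adjusted p = 0.0183) and YML045W (3.90, adjusted p = 0.0370), the single alternative of 16 in which either did. Their lowest values were 2.22 and 1.68, and their adjusted p reached 0.790. The difference in sign of YML040W and YML045W between the genotypes in hypoxia was therefore not shown at the threshold.

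The frames can be grouped by how they moved together over the 12 arrays, as a description of log2 normalized values that share arrays, groups and sequence. YML040W and YML045W, from neighbouring elements of chromosome XIII, had a Pearson r of 0.902. YMR046C had an r of 0.929 with YJR027W and 0.892 with YMR051C. The least alike were YML040W and YJR027W, at -0.24, the pair that changed places between hypoxia and shift in the wild type.

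Layout in R64 pointed to 4 further probes of nested frames, of which YJR026W, YJR028W and YJR029W have the same lengths as the named frames. YJR026W is the short frame inside YJR027W, and YJR028W and YJR029W are the short and long frame of the next element on chromosome X. YJR029W had wild type readings of 50.8 and 50.4 in air, 8.75 and 6.35 in hypoxia, and 69.9 and 11.4 after the shift. Its ixr1 null readings were 19.8 and 17.2 in air, 3.39 and 2.95 in hypoxia, and 12.8 and 7.29 after the shift. It moved over the arrays with YER160C (r = 0.970), and it too was high on wild type shift array A and low on B.

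YJR026W and YJR027W are both frames of a single element. YJR026W had wild type readings of 6.10 and 7.95 in air, 0.0599 and 0.0541 in hypoxia, and 0.262 and 0.606 after the shift. Its wild type differences from air were -7.17 ± 0.60 in hypoxia, near the -6.36 of YJR027W, and -4.09 ± 0.60 after the shift, where YJR027W had -1.68. The tandem neighbours showed the same order after the shift, with -2.92 ± 0.62 for the short YJR028W and -0.84 ± 0.65 for the long YJR029W. Between the wild type shift arrays, YJR026W was lower on A than on B, unlike the 7 named frames. On ixr1 null shift array A it was listed at 0. The difference between short and long frames was not tested.

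On the arrays labelled ixr1 null in hypoxia against air, YJR026W (-3.95, adjusted p = 0.00331), YJR028W (-2.34, adjusted p = 0.0389) and YJR029W (-2.39, adjusted p = 0.0453) fell by limma. YCL020W is a short frame of 1317 bp of another nested layout and was not identified as Ty1. In ixr1 null hypoxia it rose by limma (3.57 ± 0.65, adjusted p = 0.00731), from 0.212 and 0.673 to 3.64 and 3.07. Its wild type readings were 0.233 and 0.175 in air and 0.448 and 0.905 in hypoxia. This frame was thus higher where the others of nested layout were mostly lower.

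**Figure D5:**
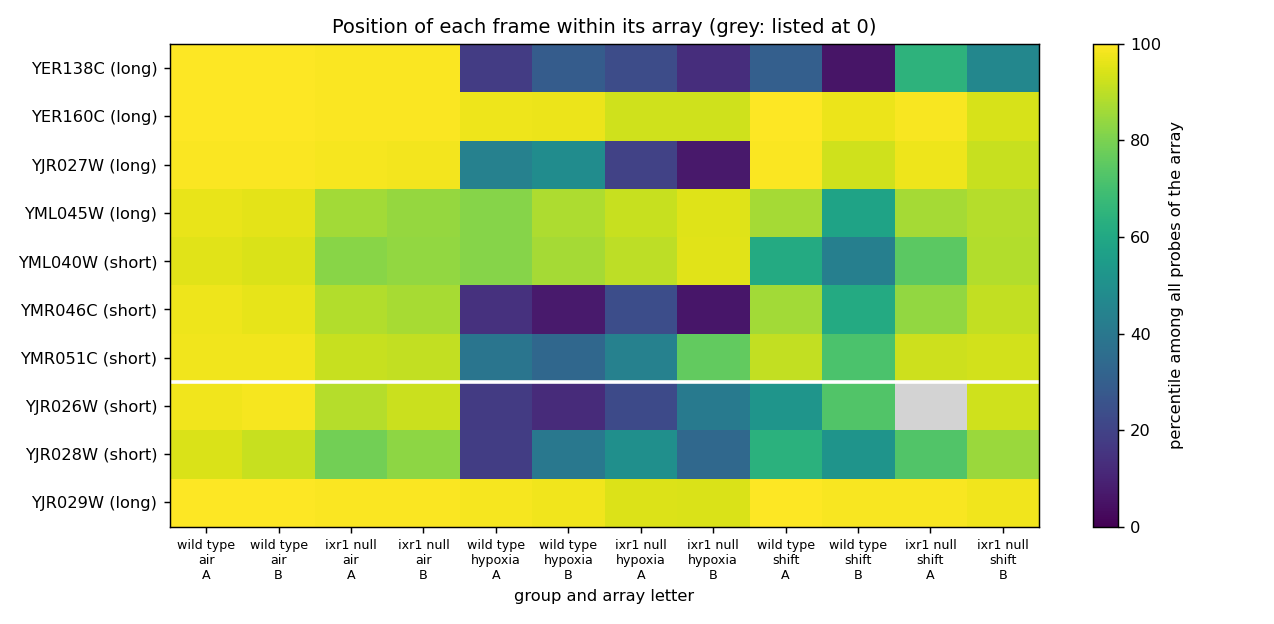
Percentile of each frame's signal among all probes of its array (colour, 0 to 100) for the 7 named Ty1 frames above the white line and 3 further frames of the same lengths below it, with 1 column per array and grey where the value is listed at 0. Each row is read across arrays: YER138C goes from above 99 on every air array to between 5.56 and 64.7 on the low-oxygen arrays, while YER160C stays above 92 throughout. On ixr1 null shift array A 58.4% of probes are listed at 0, below every positive reading.

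The genes next to the elements were examined in the same fit. For each of the 7 elements the nearest probe of another gene on either side was taken, 14 in all. Of those tested, 0 rose and 0 fell in all 9 comparisons by limma, and 8 of the 103 tests had an unadjusted p under 0.05. Over all probes 7.57% to 23.5% had such an unadjusted p, depending on the comparison. At most 6.41% of all probes rose and 6.84% fell in a comparison. In wild type hypoxia against air the differences of the neighbours ran from -1.56 (ERB1, a ribosome biogenesis factor beside YMR051C) to 1.21 (VPS71 beside YML040W). On the arrays labelled ixr1 null in hypoxia the range was -1.58 (BNA1) to 0.71 (ERB1). For 6 of the 7 elements an immediate neighbour in R64 is a tRNA gene.

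The probes whose signal ran most like the mean of the 7 frames over the 12 arrays, out of 2146 with a value on every array, were CTS1 (Pearson r = 0.921), HSP150 (0.918), ADH2 (0.905), UTH1 (0.9005) and GGA2 (0.899). CTS1 encodes the endochitinase of cell separation, HSP150 a secreted wall protein, ADH2 the glucose-repressed alcohol dehydrogenase, UTH1 a SUN family protein and GGA2 a Golgi adaptor. HSP150 had wild type readings of 17.6 and 14.7 in air, 0.0426 and 0.120 in hypoxia, and 2.93 and 1.18 after the shift. Those of ADH2 were 26.3 and 20.97 in air, 0.114 and 0.1003 in hypoxia, and 3.43 and 1.54 after the shift. Both were thus high in air and lowest in hypoxia. In the wild type CTS1 went from 1.60 and 0.830 in air to 0.0801 and 0.0743 in hypoxia. UTH1 went from 5.10 and 4.17 to 0.0786 and 0.165. GGA2 changed far less, from 0.708 and 0.504 to 0.422 and 0.478. With other scalings 3 to 4 of these 5 stayed among the nearest 5.

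Genes that act on Ty1 were examined as 5 lists. The lists were chosen with earlier results of these data known, so the p-values of their genes are not independent of that choice. Ty1 transcription depends on activators that bind within the element and on the SAGA and SWI/SNF coactivators. Of 13 transcription factors tested in ixr1 null hypoxia, 0 rose and 1 fell, beside 6.41% and 5.58% of all probes. In wild type hypoxia 0 rose and 2 fell of 13, beside 5.09% and 6.84%. MCM1, a MADS-box factor that also binds mating and cell cycle promoters, fell in both, with log2 differences of -5.39 and -6.36 (adjusted p = 0.000500 and 0.000159, limma). Its wild type readings were 7.40 and 9.64 in air and 0.0653 and 0.217 in hypoxia, but 5.63 and 2.52 after the shift. TEC1, which activates Ty1 together with Ste12, fell in wild type hypoxia (-3.28, adjusted p = 0.00717), from 0.584 and 0.414 to 0.0332 and 0.0785, the first of these under the 10th percentile of its array. On the arrays labelled ixr1 null TEC1 was dim already in air, at 0.0825 and 0.0752, a difference from the wild type of -3.06 ± 0.63 that did not pass the threshold (adjusted p = 0.309). In ixr1 null hypoxia it read 0.237 and 0.204 (1.19 ± 0.63 from air, adjusted p = 0.312), and its interaction between genotype and hypoxia was 4.47 ± 0.88 (adjusted p = 0.0795).

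Of the coactivators and chromatin factors, 2 rose and 2 fell of 21 in ixr1 null hypoxia, and 1 rose and 1 fell of 20 in the wild type. Over all probes 6.41% rose and 5.58% fell in the former and 5.09% and 6.84% in the latter, so the counts lie near the background. SPT7, a core subunit of SAGA, rose in both, with differences of 3.95 and 4.33 (adjusted p = 0.00922 and 0.00396, limma). SNF5, a subunit of SWI/SNF, fell in both, with -2.71 and -4.10 (adjusted p = 0.00264 and 0.000262). SPT3, the SAGA subunit that works with the TATA-binding protein and was found through suppression of Ty insertions, fell by 2.35 on the ixr1 null arrays (adjusted p = 0.0218), where SNF6, another SWI/SNF subunit, rose by 1.87 (adjusted p = 0.0182). On the ixr1 null arrays subunits of 1 complex thus moved in opposite directions, in SAGA and in SWI/SNF, and the list medians of -0.32 and 0.24 lay near those of all probes (-0.20 and 0.01).

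Genes that restrict Ty1 mobility gave 1 rise and 1 fall of 21 in ixr1 null hypoxia and 1 rise and 2 falls of 15 in the wild type, again near the shares over all probes (6.41% and 5.58%, and 5.09% and 6.84%). FUS3, the mating MAP kinase that limits Ty1 transposition, rose on the ixr1 null arrays by 4.17 (adjusted p = 0.000530, limma), from 0.259 and 0.452 to 4.28 and 4.25. CCR4, a deadenylase, fell in the ixr1 null and in the wild type, with -1.67 and -4.63 (adjusted p = 0.0473 and 0.000220). In the wild type its partner POP2 fell by 4.01 ± 1.10 (adjusted p = 0.0436, limma), to readings of 0.0842 and 0.0550. The latter was under the 10th percentile of its array, so the size of this fall is uncertain. The checkpoint kinase TEL1 rose in wild type hypoxia by 2.69 (adjusted p = 0.0180, limma). FUS3 had an interaction of 3.76 ± 0.64 between genotype and hypoxia that did not pass the threshold (adjusted p = 0.0583).

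Of 17 RNA decay and cofactor genes tested in ixr1 null hypoxia, 0 rose and 0 fell by limma, beside 6.41% and 5.58% of all probes. Of 18 in the wild type 0 rose and 0 fell, beside 5.09% and 6.84%. Beside 23.5% and 22.6% of all probes, 2 and 1 of these genes had an unadjusted p under 0.05. The lowest p among them belonged to LSM1, of the decapping activator ring (-1.68 ± 0.57, adjusted p = 0.0979, limma), and to UPF3, of nonsense-mediated decay (1.46 ± 0.45, adjusted p = 0.0726). Of the RNA polymerase III genes and integration factors, 0 rose and 0 fell of 22 in ixr1 null hypoxia by limma. Of these 22, 2 had an unadjusted p under 0.05, again beside 23.5% of all probes. In wild type hypoxia 1 fell of 20, beside 6.84% of all probes. This was BRF1, a subunit of the initiation factor TFIIIB (-2.73, adjusted p = 0.0296, limma), with both hypoxia readings under the 10th percentile of their array. In the shift, genotype and interaction comparisons 0 genes of any of the 5 lists passed the threshold by limma, and 42 of the 443 tests had an unadjusted p under 0.05. Over all probes 7.57% to 15.8% had such an unadjusted p, depending on the comparison. In the wild type shift 0.749% of all probes passed the threshold.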

How the data were processed

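RNA primed with oligo-dT was copied into 32P-labelled cDNA and hybridised to open reading frame arrays, per the labels' protocols. The values used are the intensity values deposited by the authors, 1 per probe and array on a linear scale. The scanner, background subtraction, scaling and genome build were not given in the sources used here. Of 5974 probe names, 5571 matched a RefSeq R64 locus tag and 403 did not. R64 served only for names, lengths and neighbours.

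Quantile normalization was run on linear values, zeros among them, after which zeros became missing and the rest was log2 transformed. A group-means model was fitted over the 12 arrays (limma 3.58.1, R 4.3.3), with 6 residual degrees of freedom for a complete probe. A probe was tested where both arrays of every group in the comparison had a value. P-values were adjusted by the Benjamini-Hochberg method over all probes tested, with a threshold of 0.05. The fit was tested on simulated data. Arrays hold no counts, so their number limits the precision.

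Members and lists were chosen with earlier results of these data known. The text names all members, the nearest probe on either side of each element, up to 2 genes of lowest p per direction and list in the comparisons described, and the 5 probes most like the members' mean. The planned choice of other Ty frames by product name could not be made from the table at hand and was replaced by the layout of nested frames.

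Within a condition, same-letter arrays of both genotypes deviated from their group means together (r across probes 0.257 in air, 0.189 in hypoxia, 0.648 after the shift), which is why the letter was also fitted as a block. The labels do not say what the letter stands for. Between conditions of 1 genotype r ran from -0.01 to 0.30.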

Additional observations from a re-analysis of the deposited data

How the results depend on the processing

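The alternatives were the deposited scale, arrays centred on the median of their positive values, zeros kept with dim values floored, dim probes left out, only the compared arrays, each array left out in turn, both shift A or both shift B arrays left out, and a replicate block. Of 742 values of single frames under them, 698 kept their direction and side of the threshold or moved by less than the spread, and the calls of YER138C, YJR027W and YMR046C in ixr1 null hypoxia held in 10 of 10 alternatives. The count there stayed at 3 or gained YMR051C (adjusted p 0.0398 without dim probes, 0.0270 without ixr1 null hypoxia array B) or YER160C (0.0275 with only the compared arrays). With 1 array left out the ixr1 null shift count ranged from 0 to 1, the genotype count after the shift from 0 to 1 and the shift interaction count from 0 to 2. The replicate block changed no frame's call (counts 3, 1 and 0), but over all probes it gave 22 in place of 35 in the wild type shift, 1 in place of 15 for genotype in hypoxia, 20 in place of 0 for genotype after the shift and 0 in place of 7 for the hypoxia interaction.

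Most reversals larger than the spread came with the shift arrays, and their cause was not tested. Smaller changes of sign are not listed, such as that of YMR051C in the ixr1 null shift (0.25, lowest -0.41). YER160C in the wild type shift ranged from -2.50 to 0.20 with 1 array left out and was 0.20 without both B arrays. In the ixr1 null shift, YML040W ranged from -0.65 to 0.57 with 1 array left out and was 0.57 without both A arrays. Its lowest value over all alternatives was -1.04. YML045W was -0.49 there with median centring. For genotype in hypoxia YMR046C ranged from -1.10 to 1.73. For genotype after the shift YER160C ranged from -2.56 to 0.16 and YJR027W from -1.97 to 0.48, and YMR046C was -0.25 without both B arrays. In the shift interaction YER160C ranged from -1.45 to 1.26 and YJR027W from -0.80 to 1.65.

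Counts over all probes moved more. Wild type hypoxia gave 593 and as few as 357 with 1 array left out, and the wild type shift 35 against 59 with floored zeros, 6 with only the compared arrays, 12 to 321 with 1 array left out, 125 without both A and 669 without both B arrays. For ixr1 null hypoxia, 660 became 427 on the deposited scale, 402 with centring and 388 without air array A. For the ixr1 null shift, 44 (41 rising) became 25 (8), 28 (6 with centring), 29 (13 with floored zeros), 11 with only the compared arrays, 9 to 129 with 1 array left out, 19 without both A and 592 without both B arrays. Genotype in hypoxia gave 15 (8 higher), 1 (1) on the deposited scale or with centring, 35 with floored zeros, 31 without dim probes, 0 with only the compared arrays and 0 to 27 with 1 array left out. Genotype after the shift gave 13 with centring and up to 13, 18 and 15 without 1 array, both A or both B. The hypoxia interaction gave 0 on the deposited scale or with centring, 10 (7 higher) with floored zeros, 22 without dim probes, 75 with only the compared arrays and 0 to 17 with 1 array left out, and the shift interaction up to 11, 6 and 15. Scaling also moved the median of all probes, from 0.30 to -0.78 in the ixr1 null shift, from 0.16 to -1.02 for genotype after the shift (both with centring) and from 0.08 to 0.39 for genotype in air (deposited scale), where all 7 frames stayed lower. Signals near the dim end of an array limit YER138C and YMR046C in low oxygen.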
